A study of Mus musculus with 4 samples.

Results

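The genes described here encode the ligands and close regulators of the activin, Nodal and TGF-beta branch of the TGF-beta superfamily in mouse retinal organoids. They were chosen by symbol from the deposited expression table: Nodal, its co-receptor gene Tdgf1, its inhibitors Lefty1 and Lefty2, the activin subunit genes Inhba and Inhbb, the activin-binding inhibitor Fst, and the ligands Tgfb1, Tgfb2 and Tgfb3. All 10 symbols were found, each in 1 row of the 55426 in the table. Such organoids are grown from pluripotent stem cells that aggregate and are steered towards retinal progenitors. The 4 libraries came from organoids at day 6 of 1 cell line, a Mettl3 knockout (Mettl3 KO) that carries an Rx:GFP reporter and a doxycycline (Dox) inducible, HA-tagged METTL3, the enzyme that writes N6-methyladenosine on RNA. Of these, 2 were untreated and 2 received Dox at 2 µg/ml for 6 days, and the medium of both groups held 5% KSR and AGN at 0.1 µM. By the genotype label both groups carry the knockout and the inducible construct. The sample titles read EV, which the labels do not explain, so the labels leave it unsettled that Dox induced METTL3 here. No line without the construct was given Dox here, so an effect of the drug and any effect of induced METTL3 cannot be told apart. The labels do not say that the duplicates came from separate cultures, so p-values measure only the spread between these libraries, which may be technical.

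Ligands of this branch are secreted dimers that bind pairs of type I and type II receptor kinases, which phosphorylate SMAD2 and SMAD3. These join SMAD4 and enter the nucleus. Nodal also needs an EGF-CFC co-receptor such as the Tdgf1 product (Cripto), and the Lefty proteins block it. Follistatin wraps around activin and keeps it from its receptors. TGF-beta leaves the cell in a latent form, held in the matrix until it is released. In the eye, TGF-beta2 is the ligand best known from the pigment epithelium and the ocular fluids, and activin-like signals are known for favouring pigment epithelium over neural retina in the optic vesicle.

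Values are FPKM, fragments scaled to transcript length and sequencing depth, so levels of different genes can be set side by side. Fitted depth was 31860000 to 34700000 fragments per library. Mettl3 read 40.33 and 37.98 FPKM untreated and 45.2 and 46.37 FPKM with Dox (adjusted p = 0.122 in limma), and gene-level values do not separate the inducible copy from the knocked-out locus. Of 8 retinal progenitor markers, 7 were higher with Dox past the threshold. Without Dox the defining marker Six6 was near 0, at 0.01 FPKM in each untreated library. Genes whose mean over the libraries reached 1 FPKM were tested with limma on log2(FPKM + 1), and 9.31% of them differed at an adjusted p below 0.05 (4.44% higher with Dox, 4.87% lower).

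Of the 10 genes, 4 reached a mean of 1 FPKM and were tested: Tgfb2, Tgfb3, Fst and Tdgf1. Each of these was above 1 FPKM in all 4 libraries, so none passed the filter through 1 group alone. Tgfb2 and Fst rose with Dox, none fell, and Tgfb3 and Tdgf1 did not pass the test. The other 6 genes stayed below 1 FPKM in every library. For 7 of the 10 genes no Dox value fell within the untreated range or the reverse. Of all genes with a value above 0, 42.2% showed that pattern, as did 53.4% of the tested genes. When the filter on low values was dropped, 2.71% of genes passed, Tgfb2 among them and none of the 6 low genes.

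**Figure D1:**
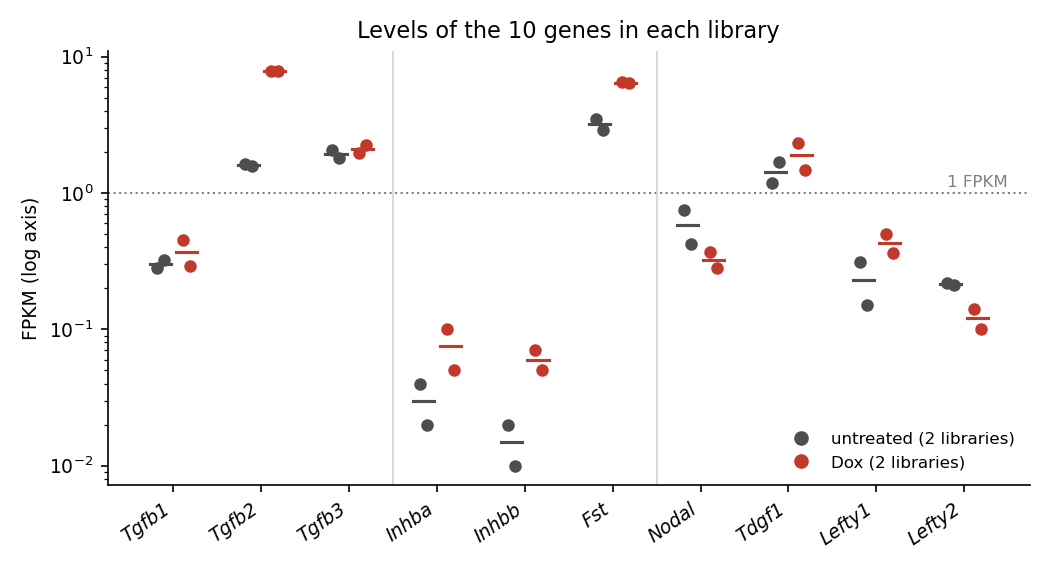
Level of each gene in each library, in FPKM on a log axis; each point is 1 library and each short line a group mean, with TGF-beta ligands at left, activin subunits and follistatin in the middle and the Nodal group at right. Tgfb2 and Fst lie above 1 FPKM in every library and are higher in both Dox libraries, while Inhba and Inhbb do not exceed 0.1 FPKM.

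Among the TGF-beta ligands, Tgfb2 rose, Tgfb3 did not pass the test and Tgfb1 was too low to be tested. Tgfb2 (ENSMUSG00000039239), which encodes TGF-beta2, lies on chromosome 1 from 186622792 to 186705989 on the minus strand (GRCm38, GENCODE M21). Its values were 1.64 and 1.58 FPKM without Dox, against 7.82 and 7.92 FPKM with it. Both Dox libraries lay far above both untreated ones, and the gap was many times the difference within either group. The mean went from 1.61 ± 0.0424 to 7.87 ± 0.0707 FPKM (SD over 2 libraries each), a ratio of 4.89. The log2 fold change was 1.76 (SE 0.104, 95% interval 1.51 to 2.02, adjusted p = 5.54e-04 in limma). Among all tested genes, 1.57% had a larger absolute log2 fold change. At the fitted depth these values stand for about 257 and 268 fragments untreated and 1216 and 1266 with Dox, counted on the longest transcript of 5116 nt. The call was kept in each of the 13 alternative fits that tested the gene. The exact two-sided permutation p was 0.333, the smallest that 2 libraries against 2 can give. An antisense gene, Gm29491, overlaps 2.14% of the exonic sequence and was listed at 0.32 FPKM in 1 untreated library and at 0 in the other 3.

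The sequence upstream of the Tgfb2 start site is shown because this ligand carried the largest change of the group. It is the 250 bases before the start at chr1:186705990-186706239, minus strand, from RefSeq (GRCm38.p6), printed 5′ to 3′. Capitals mark an E-box (CACGTG) and a TATA motif (TATAAA).
Tgfb2 upstream: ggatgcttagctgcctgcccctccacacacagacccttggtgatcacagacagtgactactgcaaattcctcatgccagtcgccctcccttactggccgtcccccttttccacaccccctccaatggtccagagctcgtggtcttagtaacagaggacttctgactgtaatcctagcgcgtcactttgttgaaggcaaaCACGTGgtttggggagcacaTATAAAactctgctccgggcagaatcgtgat

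Counting back from -1 at the last base before the start, the E-box begins at position -51 and the TATA motif at position -31. An E-box on either strand was found in 6.0% of the 32851 upstream windows of the same length, and a TATA motif in 12.4%. The short SMAD-binding motif CAGAC, in lower case here, begins at positions -221 and -204, and 42.2% of windows hold it. The letters of a FOXH1 motif (AATCCACA, in 0.7% of windows), a CREB/ATF motif (TGACGTCA, 1.5%) and a homeodomain motif (TAATTA, 4.8%) are not in this window on either strand. Of the 10 genes, 6 have an entry in the promoter table, and Fst is not among them. No binding was measured, and these matches describe the letters only.

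Tgfb3, which encodes a close relative known from palate development, lies on chromosome 12 from 86056745 to 86079041. It was listed at 2.06 and 1.82 FPKM untreated and at 1.95 and 2.24 FPKM with Dox, and the groups overlapped. Its log2 fold change of 0.07 had a 95% interval of -0.25 to 0.40 (adjusted p = 0.783 in limma). That interval lies wholly below the interval of Tgfb2. Tgfb1, the ligand best known from immune and connective tissue, was at 0.28 and 0.32 FPKM untreated and at 0.45 and 0.29 FPKM with Dox. These values also overlapped and stand for 21 to 33 fragments a library.

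The makeup of the TGF-beta ligand transcripts therefore differed between the groups. Summed over the 3 genes they came to 3.98 and 3.72 FPKM untreated and to 10.22 and 10.45 FPKM with Dox. Tgfb2 made up 41.2% and 42.5% of that sum untreated, and 76.5% and 75.8% with Dox. The share of Tgfb3 was 51.8% and 48.9% untreated, against 19.1% and 21.4% with Dox. Without Dox, Tgfb3 stood slightly above Tgfb2 in each library. With Dox, Tgfb2 was 4.01 and 3.54 times Tgfb3. These shares have no more power than the single genes (exact permutation p = 0.333, the smallest possible).

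**Figure D2:**
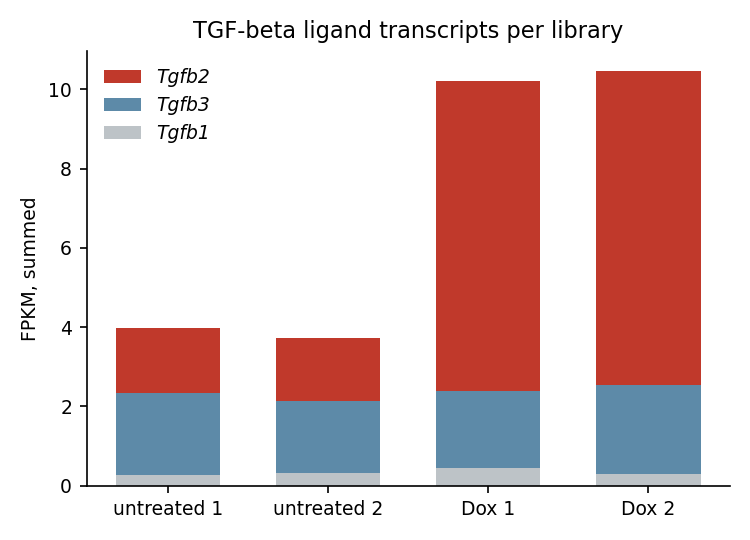
FPKM of Tgfb1, Tgfb3 and Tgfb2 stacked for each of the 4 libraries. The sum is 3.72 to 3.98 FPKM untreated and 10.22 to 10.45 FPKM with Dox, and the added height is Tgfb2.

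In the activin group the inhibitor was expressed and the ligand subunits barely were. Fst (ENSMUSG00000021765), which encodes follistatin, lies on chromosome 13 from 114452290 to 114458951 on the minus strand. It was listed at 3.48 and 2.91 FPKM untreated and at 6.5 and 6.36 FPKM with Dox, and every Dox value was above every untreated one. The means were 3.19 ± 0.403 and 6.43 ± 0.0990 FPKM (SD, n = 2 each), a ratio of 2.01. The log2 fold change was 0.83 (SE 0.116, 95% interval 0.54 to 1.12, adjusted p = 0.0112 in limma). The values stand for about 271 to 300 fragments untreated and 555 to 559 with Dox. The call was lost without the filter on low values (adjusted p = 0.0739) and when untreated replicate 2 (0.0665), Dox replicate 1 (0.0812) or Dox replicate 2 (0.0839) was left out, with the fold change between 0.73 and 0.84.

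Inhba and Inhbb encode the beta-A and beta-B chains that pair to form activins. Inhba was at 0.04 and 0.02 FPKM untreated and at 0.1 and 0.05 FPKM with Dox, about 4 to 8 and 10 to 20 fragments. Inhbb was at 0.02 and 0.01 FPKM untreated and at 0.07 and 0.05 FPKM with Dox, about 1 to 3 and 7 to 9 fragments. The untreated Inhbb values are at or under the level of 3 fragments, so no fold change is given. Both genes were listed higher in both Dox libraries, and neither passed the test when the filter on low values was dropped (adjusted p = 0.486 and 0.302 in limma). Fst exceeded the summed subunits 58.0 and 97.0 times untreated and 38.2 and 63.6 times with Dox, and these ratios overlapped (exact permutation p = 0.667). The summed subunits were only 0.06 and 0.03 FPKM untreated and 0.17 and 0.1 FPKM with Dox. Since the values are rounded to 2 decimals, these ratios are rough. Of 10 other ligand genes of the TGF-beta superfamily, 2 were tested, Gdf11 and Inha. Gdf11 was at 19.08 and 19.28 FPKM untreated and at 14.94 and 16.4 FPKM with Dox. It did not pass (adjusted p = 0.111 in limma), and in each library it was above every one of the genes described here. Inha, the alpha chain that turns activin subunits into inhibins, was higher than either beta subunit in every library. It fell from 4.39 ± 0.191 to 2.62 ± 0.163 FPKM (SD of 2 libraries, log2 fold change -0.57, adjusted p = 0.0346 in limma), a call lost without the filter (adjusted p = 0.121), with the replicate number as a block (0.0649), with rescaling to TPM (0.0649) and when any 1 library was left out (0.102 to 0.182).

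The Nodal group was low in all 4 libraries. Tdgf1, on chromosome 9 from 110939603 to 110946158, was its only gene above 1 FPKM. It was at 1.19 and 1.68 FPKM untreated and at 2.33 and 1.48 FPKM with Dox, with overlapping groups. Its log2 fold change of 0.25 had an interval of -0.25 to 0.74 (adjusted p = 0.517 in limma). Of its 50-base words, 8.86% also occur in the pseudogene Tdgf1-ps1, so its reads could have been split.

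Nodal itself (chromosome 10 from 61417972 to 61425338) was at 0.75 and 0.42 FPKM untreated and at 0.37 and 0.28 FPKM with Dox, about 45, 27, 22 and 17 fragments. Lefty1 was at 0.31 and 0.15 FPKM untreated and at 0.5 and 0.36 FPKM with Dox. Lefty2 was at 0.22 and 0.21 FPKM untreated and at 0.14 and 0.1 FPKM with Dox. Nodal and Lefty2 were thus listed lower, and Lefty1 higher, in both Dox libraries. Without the filter, their log2 fold changes were -0.25 for Nodal, 0.22 for Lefty1 and -0.12 for Lefty2, with adjusted p of 0.448, 0.383 and 0.227 in limma. Lefty1 and Lefty2 are neighbours on chromosome 1 and share sequence: 17.9% of the 50-base words of Lefty1 and 11.9% of those of Lefty2 occur in the other. Their values are uncertain where the authors' counting split such reads. These 3 genes rest on 7 to 45 fragments a library.

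Pluripotent cell markers are given beside this group, since Nodal, Lefty and Tdgf1 are also expressed in pluripotent cells. Summed over the 8 markers they were at 70.8 and 74.2 FPKM untreated and at 75.8 and 53.1 FPKM with Dox. Of the 7 tested, 1 was lower and none higher past the threshold. The lower marker, Klf4, was below 1 FPKM in both Dox libraries and passed the filter through the untreated group alone. Within the Dox group the marker sum and all 4 genes of the Nodal group were higher in replicate 1. Within the untreated group the sum and Tdgf1 were higher in replicate 2, and Nodal, Lefty1 and Lefty2 in replicate 1. The part of such cells in these values was not tested. The 10 mesoderm and endoderm markers summed to 2.16 to 2.39 FPKM untreated and 2.74 to 3.28 FPKM with Dox, and none had a mean of 1 FPKM.

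Ranked by level, Fst was the highest of the 10 genes without Dox, followed by Tgfb3, Tgfb2, Tdgf1, Nodal, Tgfb1, Lefty1, Lefty2, Inhba and Inhbb. Tgfb2 and Tdgf1 overlapped in that order, as did Tgfb1 with Lefty1, Lefty1 with Lefty2, and Inhba with Inhbb. With Dox, Tgfb2 came first, ahead of Fst, and their libraries did not overlap. Tgfb3 and Tdgf1 followed and overlapped. Lefty1, Tgfb1 and Nodal overlapped as neighbours next, and Lefty2, Inhba and Inhbb came last, again overlapping as neighbours. By their mean over the 4 libraries, even Fst and Tgfb2 were in the lower part of the tested genes. Tgfb2 had a mean of 4.74 FPKM, with 24.7% of the tested genes lower. Fst had a mean of 4.81 FPKM, with 25.0% lower. For both genes this mean lies between the untreated and the Dox level.

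Other genes of the pathway were taken from 8 lists of 88 genes, of which 55 had a mean of at least 1 FPKM. Of these, 10 were higher and 9 lower past the threshold, 34.5% against 9.31% of all tested genes, with a median log2 fold change of 0.05 beside -0.0042 for all. It changed sign when the filter was dropped (-0.0072) and when replicate 2 of the untreated (-0.023) or of the Dox group (-0.015) was left out. The lists were written with earlier results of these data known, and the share is a description. Of the 17 genes picked from them by rule, 7 kept their call in every alternative that tested them (Acvr2a, Smad7, Itgb5, Thbs1, Fbn2, Wfikkn1 and Ccn2). The other 10 lost it in at least 1.

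Among receptors, 4 of 10 genes were tested and 1 was lower. Acvr2a, a type II receptor for activin, Nodal and several BMPs, fell from 31.22 and 29.98 FPKM to 14.67 and 14.0 FPKM (log2 fold change -1.04, adjusted p = 9.82e-04 in limma). Its exons overlap Orc4 on the opposite strand over 7.84% of their length. Orc4 was at 40.66 and 50.66 FPKM untreated and at 34.96 and 33.13 FPKM with Dox. Without strand-aware counting, reads from the overlap cannot be assigned to either gene. The remaining receptors are named after their values were seen. Acvr2b was at 30.3 ± 2.33 and 26.3 ± 6.65 FPKM (SD of 2 libraries, adjusted p = 0.506), and its fold change turned positive without Dox replicate 1 (log2 fold change 0.032). The type I receptor genes Tgfbr1 (38.7 and 36.6 FPKM, adjusted p = 0.575) and Acvr1b (7.11 and 8.04 FPKM, adjusted p = 0.459) did not pass either. Tgfbr2, the type II receptor for TGF-beta, had 1.26 and 1.15 FPKM untreated and 0.66 and 0.76 FPKM with Dox. Tgfbr3, or betaglycan, which presents TGF-beta2 to the signalling receptors, had 1.12 and 1.15 FPKM untreated and 0.92 and 0.8 FPKM with Dox. Both were listed lower in both Dox libraries but had a mean below 1 FPKM, and without the filter their adjusted p in limma was 0.176 and 0.383.

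Of the 10 SMAD and nuclear partner genes, 1 was higher, 1 was lower and 8 did not pass the test. Skil, a SMAD co-repressor that is itself a TGF-beta target, rose from 3.87 and 3.64 FPKM to 7.61 and 8.55 FPKM (log2 fold change 0.93, adjusted p = 0.00553 in limma). Without Dox replicate 2 its adjusted p was 0.0531. Zfyve9, the SMAD anchor known as SARA, fell from 34.5 and 33.2 FPKM to 24.58 and 23.59 FPKM (log2 fold change -0.47, adjusted p = 0.0133), a call lost when any 1 library was left out (0.0642 to 0.110).

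Of the 8 intracellular inhibitors, 2 were higher and 1 lower. Smad7, the inhibitory SMAD of the TGF-beta, activin and BMP branches, rose from 3.19 and 2.8 FPKM to 7.71 and 7.5 FPKM (log2 fold change 1.11, adjusted p = 0.00293 in limma). Smad6, the inhibitory SMAD of the BMP branch, rose from 4.48 and 3.87 FPKM to 9.47 and 11.58 FPKM (log2 fold change 1.15, adjusted p = 0.00540, and 0.0582 without the filter). Pmepa1, a TGF-beta induced inhibitor of receptor signalling, moved the other way. Both its Dox values were below 1 FPKM, so it passed the filter through the untreated group alone, which limits its call. It fell from 2.11 and 1.5 FPKM to 0.65 and 0.61 FPKM (log2 fold change -0.77, adjusted p = 0.0425), and the call was lost in 6 of 12 alternatives.

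Genes for ligand processing, latency and release went in both directions, with 2 higher and 3 lower of 14 tested. Fbn2, which encodes the matrix protein fibrillin-2, rose from 7.26 and 5.95 FPKM to 25.34 and 31.48 FPKM (log2 fold change 1.95, adjusted p = 0.00103 in limma). Ltbp4, a latent TGF-beta binding protein, rose from 7.15 ± 0.990 to 12.5 ± 1.24 FPKM (SD of 2 libraries, adjusted p = 0.0227), a call lost in 4 of 14 alternatives. Itgb5, the beta chain of the integrin alpha-v beta-5, fell from 28.83 and 24.84 FPKM to 9.38 and 7.79 FPKM (log2 fold change -1.54, adjusted p = 0.00140). Thbs1, whose product thrombospondin-1 can activate latent TGF-beta, fell from 38.52 and 34.58 FPKM to 19.19 and 16.32 FPKM (0.486 of the untreated mean, adjusted p = 0.00385). Pcsk6, a convertase that cleaves Nodal and Lefty precursors, fell from 3.61 ± 0.346 to 1.77 ± 0.304 FPKM (adjusted p = 0.0308, lost in 5 of 13 alternatives). It is named outside the rule because it completes the count.

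All 3 calls among the 4 tested extracellular antagonists were upward. Wfikkn1, a secreted binder of myostatin and GDF11, rose from 13.04 and 12.94 FPKM to 34.85 and 35.66 FPKM (log2 fold change 1.37, adjusted p = 3.37e-04 in limma). Bambi, a membrane pseudoreceptor grouped here, rose from 3.43 and 4.09 FPKM to 7.6 and 7.48 FPKM (log2 fold change 0.85, adjusted p = 0.00962). Its call was lost without the filter (0.0663) and without untreated replicate 1 (0.0555), Dox replicate 1 (0.0745) or Dox replicate 2 (0.0799). Fstl1, a follistatin-like protein, rose from 37.5 ± 0.990 to 47.8 ± 0.127 FPKM (SD of 2 libraries, adjusted p = 0.0308, lost in 8 of 14 alternatives, the replicate block among them with 0.100) and is also named outside the rule. Of these 3, only Wfikkn1 kept its call in every alternative. Fst, also called higher, is not in this list. Dand5, tested without passing, had a log2 fold change of -0.07. Of those not tested, Fstl3 was listed higher in both Dox libraries, Dcn and Wfikkn2 lower, and Cer1 at 0 throughout. Outside this list, Lefty1 was listed higher, Lefty2 was listed lower and Inha was called lower.

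Of the 10 Nodal and activin target genes, 9 had a mean below 1 FPKM. The exception was Fgf8, a signal of the anterior neural ridge and optic vesicle, which rose from 3.16 and 2.99 FPKM to 6.06 and 5.92 FPKM (log2 fold change 0.78, adjusted p = 0.00904 in limma). Its call was lost without the filter (0.0578) and when any 1 library was left out (0.0501 to 0.0674). Of the 12 tested TGF-beta target genes, 1 was higher and 2 lower, with a median log2 fold change of -0.09. That median was 0.055 without untreated replicate 1, 0.012 without Dox replicate 2 and -0.27 without Dox replicate 1. Ccn2, listed as Ctgf in older annotation and also a target of YAP, fell from 43.88 and 45.84 FPKM to 21.25 and 22.19 FPKM (log2 fold change -1.01, adjusted p = 8.96e-04). The transcript Gm15270 overlaps 23.2% of its exonic sequence on the opposite strand, at 0.5 to 1.14 FPKM. Klf10 fell from 15.3 ± 0.693 to 10.9 ± 0.410 FPKM (adjusted p = 0.0295), and Junb rose from 4.44 ± 0.693 to 7.75 ± 0.905 FPKM (adjusted p = 0.0387, SD, n = 2 each). Klf10 lost its call in 7 of 14 alternatives and Junb in 5. Junb also overlaps the abundant gene Prdx2 on the opposite strand, and without strand-aware counting reads of the pair cannot be told apart.

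**Figure D3:**
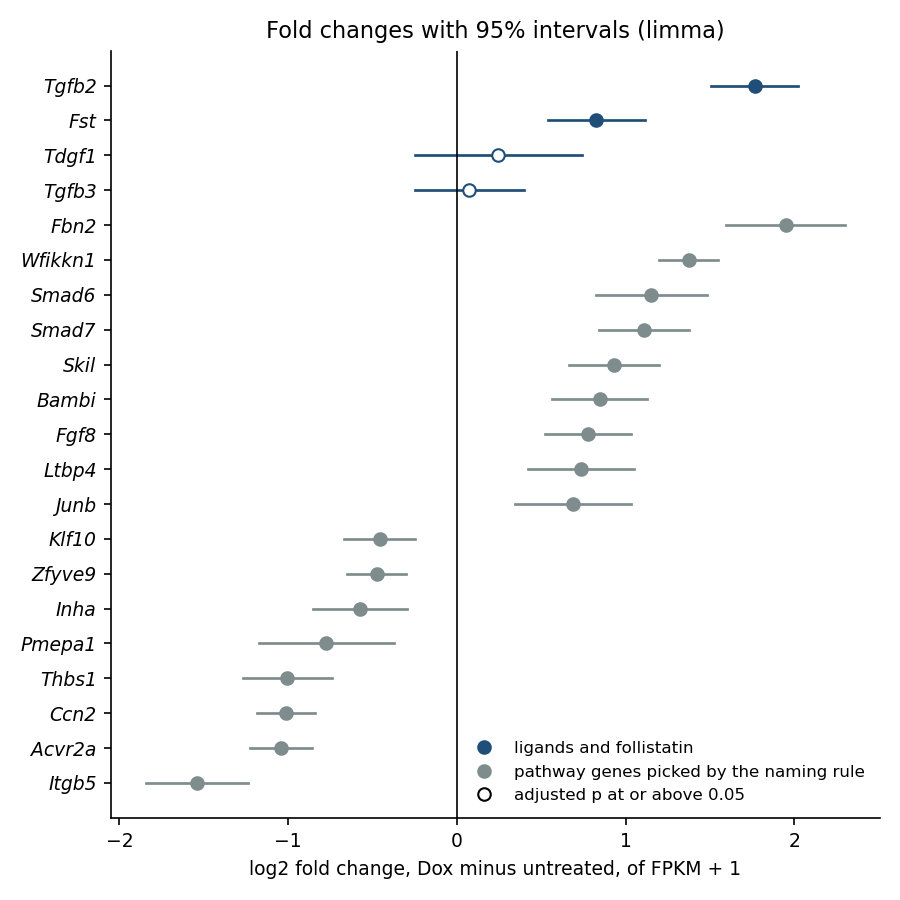
Log2 fold change, Dox minus untreated, of FPKM + 1 for the 4 tested ligand and regulator genes (blue) and the 17 pathway genes picked by rule (grey), with 95% intervals from limma; open circles did not pass the threshold. Tgfb2 (1.76) and Fst (0.83) lie above 0, the intervals of Tdgf1 and Tgfb3 include 0, and the pathway genes range from -1.54 for Itgb5 to 1.95 for Fbn2.

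**Figure D4:**
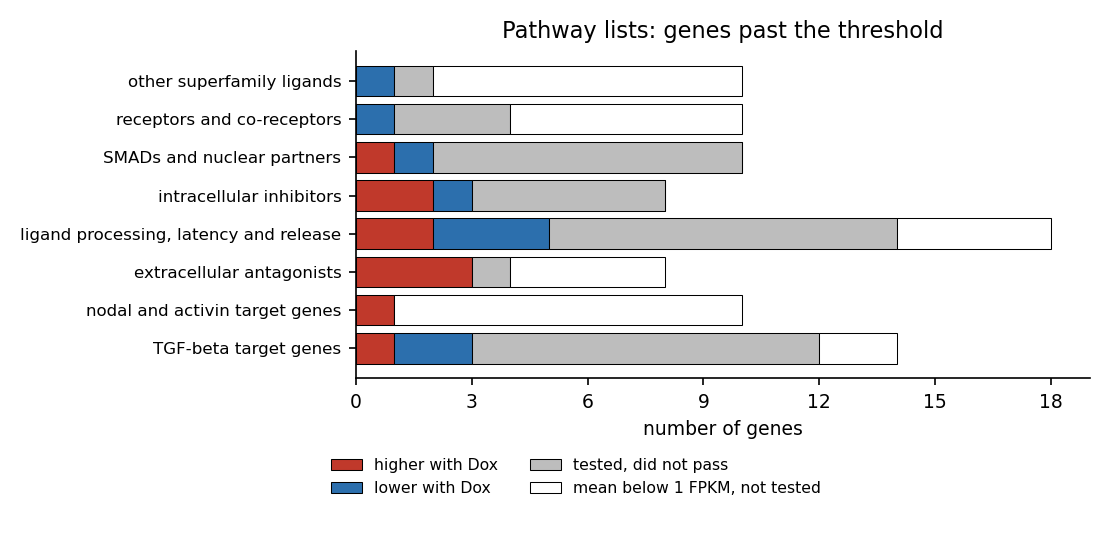
Number of genes in each of the 8 pathway lists that were higher with Dox, lower with Dox, tested without passing the threshold, or not tested because their mean was below 1 FPKM. All 3 calls among extracellular antagonists are upward, and 9 of 10 Nodal and activin target genes were too low to test.

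The 3 genes whose profile over the 4 libraries lay nearest to that of Tgfb2, by Euclidean distance of centred log2(FPKM + 1) values, were Sphk1 (distance 0.105), Necab2 (0.112) and Htra1 (0.116). Sphk1 had 6.67 FPKM untreated and 24.3 FPKM with Dox, Htra1 0.75 and 4.68 FPKM, and Necab2 22.4 and 82.5 FPKM. Htra1 was below 1 FPKM in both untreated libraries, so it passed the filter through the Dox group alone. With 4 libraries in 2 groups, this likeness says little more than that the differences in log2(FPKM + 1) were of the same size. The ratios of the FPKM means differed more, at 3.64 for Sphk1, 3.68 for Necab2 and 6.25 for Htra1, against 4.89 for Tgfb2.

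Markers of other cell types moved with Dox as well, and in whole organoids a change in the number of cells of a type and a change in RNA per cell cannot be told apart. The 8 pigment epithelium markers summed to 2.46 and 2.79 FPKM untreated and to 62.2 and 62.3 FPKM with Dox. All 3 that were tested, Mitf, Dct and Pmel, rose, with log2 fold changes of 2.82, 3.09 and 4.21 (adjusted p from 4.17e-05 to 1.34e-04 in limma), while Tyr was listed at 0 in both untreated libraries and Rpe65 at 0.02 and 0 FPKM with Dox. Mitf and Dct were below 1 FPKM in both untreated libraries and passed the filter through the Dox group alone. Retinal progenitor markers summed to 164 and 151 FPKM untreated and to 891 and 1048 FPKM with Dox. Among them, Six6 also passed the filter through the Dox group alone. All 7 tested neuron markers fell, and the list's sum went from 161 and 157 FPKM to 85.8 and 89.7 FPKM. Most of that sum was Tubb3, at 118.53 and 116.78 FPKM untreated and 75.76 and 79.83 FPKM with Dox. Its log2 fold change was -0.59, beside a list median of -1.24. Elavl3 was below 1 FPKM in both Dox libraries and passed the filter through the untreated group alone. Of the 8 mesenchyme and neural crest markers 2 rose, 3 fell and 3 did not pass. Their sums were 39.9 and 37.7 FPKM untreated and 26.8 and 23.3 FPKM with Dox. The 3 that fell were the neural crest genes Sox10 (mean 13.1 to 0.625 FPKM), Tfap2b (8.4 to 0.72 FPKM) and Foxd3 (4.83 to 0.26 FPKM). They were below 1 FPKM in both Dox libraries and passed the filter through the untreated group alone. The 2 that rose were the mesenchyme genes Col1a2 (2.2 to 12.1 FPKM) and Pdgfra (1.1 to 2.78 FPKM). The part of these cell types in the rise of Tgfb2 and Fst was not tested.

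**Figure D5:**
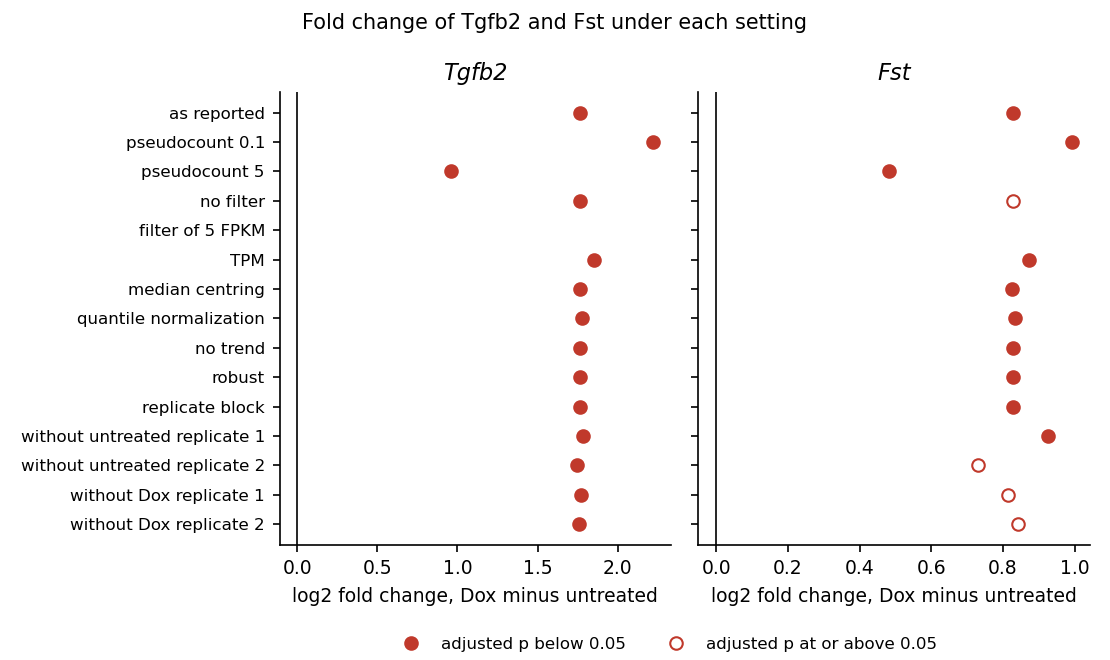
Log2 fold change, Dox minus untreated, of Tgfb2 (left) and Fst (right) as reported and under each alternative setting; filled circles passed an adjusted p of 0.05 in limma. Tgfb2 passes wherever it was tested, Fst does not pass in 4 settings, and neither gene reaches the mean of 5 FPKM needed in the strictest filter.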

How the data were processed

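Poly(A)-selected RNA of 4 organoid libraries was sequenced in 150-base read pairs, per the labels. The authors deposited 1 FPKM value per gene and library, rounded to 2 decimals. The submitters' processing notes name STAR, Cuffdiff and mm10; versions, annotation and strand setting are not given in the sources used here. Libraries were grouped by treatment label, 2 untreated and 2 Dox. FPKM is no count, so log2(FPKM + 1) of the 13931 genes whose mean reached 1 FPKM was fitted with limma 3.58.1 in R 4.3.3 (eBayes with trend, no covariate, two-sided, Benjamini-Hochberg over all tested genes, threshold 0.05). Fold changes on this scale understate those of low genes.

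Depth was fitted from the steps between low values of single-transcript genes of 450 to 1200 nt (Python 3.11.15, numpy 2.4.6). Of these values, 77.1% to 79.1% came within 0.1 of a whole fragment, against 17.9% to 20.0% with lengths shuffled. The shuffled values were scored at the settings fitted to the unshuffled ones, without a new fit. This gap is therefore no test of the fit. Fragments per gene assume the longest transcript and cover counting error only. Locations, transcript lengths and overlaps are from GENCODE M21 (GRCm38, the assembly of mm10), and the upstream sequence is from RefSeq.

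Besides the 10 genes, the text names up to 2 called genes per direction in each pathway list and the 3 nearest profiles. Members and lists were chosen with earlier results of these data known. The limma fit and the depth fit were tested on simulated data. The depth simulation took fewer bases off each transcript length than the 236 to 242 nt fitted here. The 14 alternative fits used other pseudocounts, filters, scalings and variance models, the replicate number as a block, and each library left out. One marker gene is not reported here by name but stays in the list's counts and sums.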

Additional observations from a re-analysis of the deposited data

How the results depend on the processing

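Tgfb2 kept its direction and its call in all 13 alternative fits that tested it, with a log2 fold change from 0.96 (pseudocount 5) to 2.22 (pseudocount 0.1) and an adjusted p of at most 0.0191 in limma. The number of the 10 genes called higher was 2, and it was 1 without the filter, where Fst dropped out, and 0 with a minimum of 5 FPKM, where neither Tgfb2 nor Fst was tested. It was 1 to 2 when each library was left out in turn, fits in which the lone library is assumed to vary like the other group. None was called lower in any fit. Over all genes, 619 were higher and 678 lower; without the filter the counts were 336 and 409, and under the 5 FPKM minimum, where fewer genes are tested, 408 and 413. Leaving out a library, which leaves fewer samples, gave 265 to 332 higher and 341 to 370 lower. Pathway genes called higher went from 10 to 4 without the filter and to 4 to 6 with a library left out, and those called lower from 9 to 4 with any library left out. Under a replicate block on that number, 532 were higher and 602 lower, and of the pathway genes 9 and 7; Inha, Klf10 and Fstl1 lost their calls (adjusted p = 0.0649, 0.0621 and 0.100 in limma). Nothing shows that equal numbers mark paired libraries (correlation of replicate differences across genes -0.043). The ratio of Fst to the activin subunits, Dox over untreated, was -0.61 on the log2 scale and -1.02 to -0.19 with a library left out. It is rough, since the subunit sums were only 0.03 to 0.17 FPKM. Acvr2b, which did not pass, ranged from -0.47 to 0.032 and changed sign without Dox replicate 1. Depth limits Inhbb, Inhba, Lefty1 and Lefty2 most, at 1 to 22 fragments a library.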
